A study of Mus musculus with 6 samples.

Results

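Expression of 36 genes that mark tissue-resident macrophages and monocytes was examined in aortas of Nod1 -/- and Nod1 +/- mouse fetuses. Members were the non-control probes whose gene name in the scanner files stood on this list. Of the 36 names, 35 were found, through 44 of 55681 non-control probes, and Ly6c2, a monocyte surface antigen, was not analysed here. A gene was tested when it had a probe with a usable spot on every array and a signal well above background on 3 or more of 6, which held for 34 members, among 21478 genes tested in all. Cd209g, a DC-SIGN-related lectin, missed it, with a signal well above background on 1 Nod1 -/- array and 0 Nod1 +/- arrays.

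RNA from the fetal aorta was hybridised to 1-colour Agilent arrays, 3 for Nod1 -/- and 3 for Nod1 +/- fetuses, which were littermates of the C57BL/6 strain. Their dams were Nod1 -/- and had been crossed to Nod1 +/- males. Every dam had received 500 µg of the synthetic NOD1 ligand FK565 under the skin at E18.5, late in gestation, and the vessels were collected 6 h afterwards. The comparison addressed how the vessels of the fetus itself respond to the ligand, and all 6 arrays share the exposure. The sources used here do not give the part of Nod1 that was deleted. The Nod1 probe read 3.20, 3.19 and 3.35 on the Nod1 -/- arrays, against 3.15, 3.20 and 3.78 on the Nod1 +/- arrays, so it may lie outside the deletion and does not check the labels. Values are log2 signal relative to the 75th percentile of the array, given in the order of replicates 1, 2 and 3, and differences are Nod1 -/- minus Nod1 +/- with limma's adjusted p over all 21478 genes and a threshold of 0.05.

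Tissue macrophages of the fetus settle in organs before birth and take up dying cells, lipids and matrix fragments through scavenger receptors and lectins. They are kept alive by ligands of the receptor CSF1R, and they sense nucleotides, lysophospholipids and the chemokine fractalkine through G protein-coupled receptors. Monocytes enter from the blood along gradients of CCR2 ligands, and NOD1, a cytosolic sensor of bacterial peptidoglycan fragments, signals through RIPK2 to NF-kB.

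Macrophage transcripts were present on every array. Emr1, the array's name for F4/80 (now Adgre1), and the lysosomal glycoprotein gene Cd68 were well above background on all 6, as were 30 of the 34 tested members. Smooth muscle genes, the main contractile transcripts of the aortic wall, averaged 4.03 to 4.45 on Nod1 -/- and 4.15 to 4.47 on Nod1 +/- arrays, with 0 of 9 past limma's threshold and 0 at an unadjusted p under 0.05. Other cells of the wall had genes that were higher in Nod1 -/- aortas. There were 4 higher and 0 lower of 10 blood endothelial genes, 3 and 0 of 9 fibroblast genes, and 2 and 0 of 5 Schwann cell genes. Among all genes tested, 11% were higher and 7.66% lower. The part of these cells in the results was not tested. Some arrays stood apart. All arrays shared a slide, on which row 1 held Nod1 -/- replicates 1 and 2, and row 2 held Nod1 -/- replicate 3 with the Nod1 +/- arrays. Xist, a transcript of female cells, read 1.09, -6.90 and -6.24 on the Nod1 -/- arrays, against 1.35, -6.45 and 1.49 on the Nod1 +/- arrays. It was well above background on 1 Nod1 -/- and 2 Nod1 +/- arrays, and the Y-linked gene Ddx3y on the remaining arrays, so sex was not balanced between genotypes. Sympathetic neuron genes averaged 2.31, 0.34 and -1.04 on the Nod1 -/- arrays, against 0.21, -1.44 and -2.19 on the Nod1 +/- arrays. Skeletal muscle genes averaged 0.84, 1.23 and 1.34 on the Nod1 -/- arrays, against 5.52, 1.24 and 0.95 on the Nod1 +/- arrays, so Nod1 +/- replicate 1 was the array rich in muscle transcripts.

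Of the 34 tested members, 8 were higher in Nod1 -/- aortas and 0 were lower, that is 23.5% higher, while 11% of all genes tested were higher and 7.66% lower (18.7% in either direction). With the arrays scaled to their medians, 7 members were higher and 0 lower, against 926 genes higher and 1580 lower among all genes, where the scaling used here gave 2366 and 1646. At limma's unadjusted p under 0.05, 10 members were higher (29.4%) and 2 lower (5.88%), against 22% and 13.6% of all genes. The median difference was 0.37 over the 34 members and 0.10 over all genes tested (-0.01 over all genes with median scaling). In a fit blocked by slide row, where the contrast rests on Nod1 -/- replicate 3 against the Nod1 +/- arrays, the median over the members was -0.12, with 2 members higher and 1 lower. The 8 members were the receptor genes Gpr34, P2ry12, Cx3cr1, P2ry13, Trem2 and Lyve1, together with Ly86 and Cbr2. Gpr34 is counted although it met the filter through its Nod1 -/- arrays alone. The log2 differences of the 7 besides Gpr34 ran between 1.03 and 2.40, and those of the 26 other members between -0.83 and 1.87. That of Gpr34 is bounded at 2.33 or more with the background handling used here. Differences were above 0 for 23 members, where the median over all genes tested was also above 0, at 0.10. Values did not overlap between genotypes for 11 members, 9 of them higher in Nod1 -/- and 2 lower. Of all genes tested 42.4% did not overlap, 26.1% higher and 16.3% lower. In whole vessels, fewer cells of a type and less RNA per cell cannot be told apart.

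**Figure D1:**
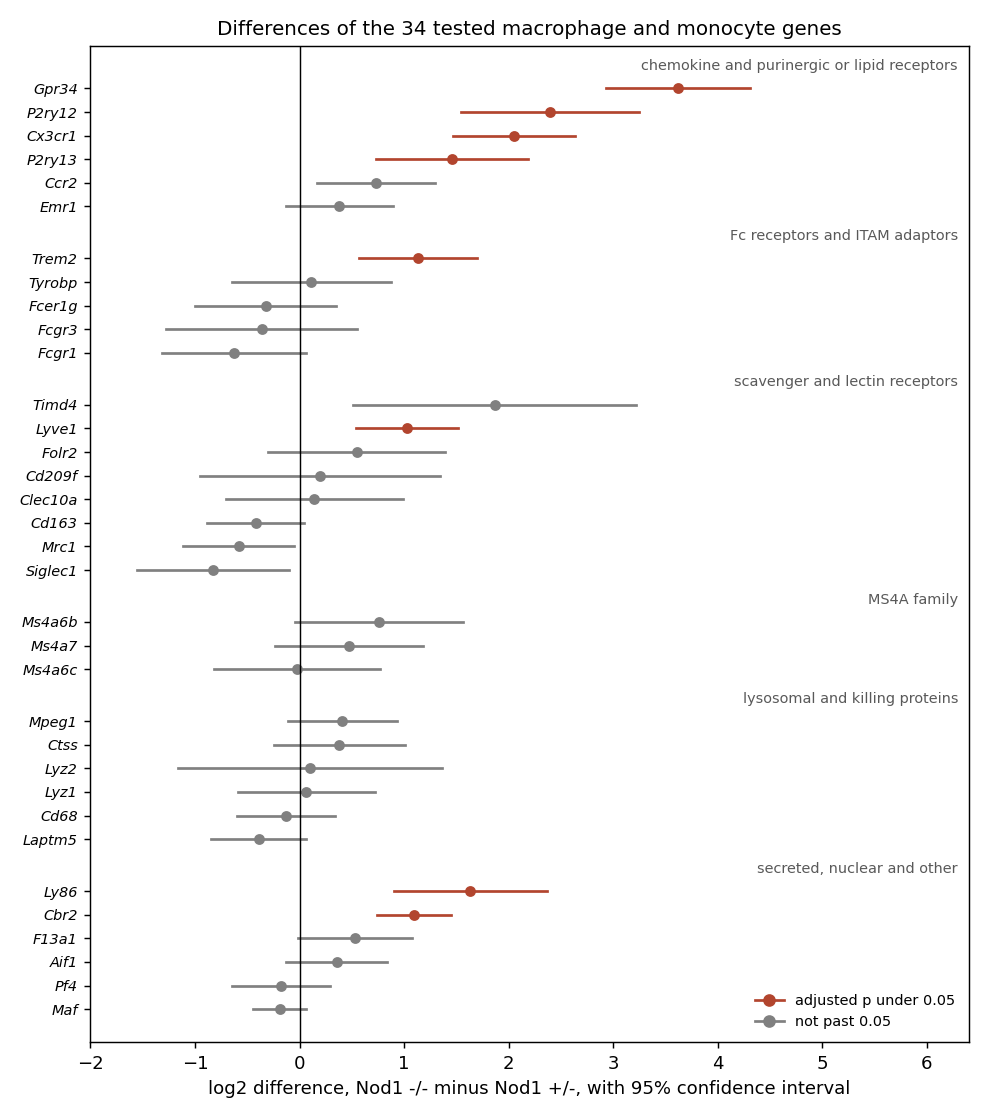
Log2 differences (horizontal axis, Nod1 -/- minus Nod1 +/-) of the 34 tested genes, grouped by role, with points for the fitted difference and lines for its 95% confidence interval. The 8 red genes passed an adjusted p of 0.05 and all lie to the right of 0, with Lyve1 at 1.03 and P2ry12 at 2.40, while the Gpr34 point is a measured difference whose Nod1 +/- side was not well above background. Of the 8 genes, 4 are among the 6 at the top, a group of chemokine, purinergic and lipid receptors in which Emr1 was also placed.

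The 250 bases upstream of the annotated start are shown for 4 of the 8 genes that passed, because these are the stretches in which factors of macrophage promoters are usually sought. They come from RefSeq, build GRCm38.p6, and are written 5′ to 3′ on the strand of the gene. RefSeq's table held such an entry for 28 of the 35 members, and capitals mark GAGGAA, a core bound by the macrophage factor PU.1, in these windows.
Cx3cr1, chr9:120068297-120068546, minus strand: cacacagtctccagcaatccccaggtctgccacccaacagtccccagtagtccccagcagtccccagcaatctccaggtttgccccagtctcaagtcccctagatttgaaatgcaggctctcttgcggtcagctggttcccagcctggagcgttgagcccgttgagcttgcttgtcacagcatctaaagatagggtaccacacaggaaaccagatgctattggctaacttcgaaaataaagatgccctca
P2ry12, chr3:59262986-59263235, minus strand: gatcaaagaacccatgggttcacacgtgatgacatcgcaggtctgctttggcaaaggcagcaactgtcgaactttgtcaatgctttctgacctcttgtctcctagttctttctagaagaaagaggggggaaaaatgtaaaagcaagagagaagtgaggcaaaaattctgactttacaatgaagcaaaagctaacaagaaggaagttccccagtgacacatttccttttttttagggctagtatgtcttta
Ly86, chr13:37345095-37345344, plus strand: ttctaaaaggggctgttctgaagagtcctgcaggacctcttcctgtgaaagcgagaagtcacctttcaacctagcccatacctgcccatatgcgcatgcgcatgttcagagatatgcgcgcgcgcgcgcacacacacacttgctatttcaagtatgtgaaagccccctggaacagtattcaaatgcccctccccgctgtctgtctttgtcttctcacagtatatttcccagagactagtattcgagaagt
Cbr2, chr11:120732022-120732271, minus strand: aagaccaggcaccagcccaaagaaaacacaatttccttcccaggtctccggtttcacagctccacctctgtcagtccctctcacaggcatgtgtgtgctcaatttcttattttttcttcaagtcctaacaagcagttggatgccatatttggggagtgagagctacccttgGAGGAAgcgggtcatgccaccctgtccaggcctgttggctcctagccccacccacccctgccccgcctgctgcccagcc
Of these windows, that of Cbr2 held the letters GAGGAA. Counting either strand (GAGGAA or TTCCTC), the letters stood in 3 of 6 higher members with an entry and in 9 of 21 tested members that did not pass. Emr1 was looked up by its current name Adgre1 for the 28 members on the array, but not for those 21. Of the 28 members, 12 held the letters (42.9%), against 23.1% of the 27025 genes in the table. A match describes letters and was not tested for binding.

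Receptors for chemokines, nucleotides and lysophospholipids held the 3 widest differences, those of Gpr34, P2ry12 and Cx3cr1. Of the 6 members of this group, in which Emr1 was also placed, 4 were higher in Nod1 -/- aortas and 0 lower. Their median difference was 1.76, and 11% of all genes tested were higher and 7.66% lower.

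Gpr34 encodes a receptor for lysophosphatidylserine and was read by a probe on chromosome X at 13217863 to 13217922 of mm9. It read -1.49, -1.73 and -2.42 in Nod1 -/- aortas, against -5.87, -5.22 and -5.41 in Nod1 +/- aortas. The scanner signals behind these values were 139.7, 132.5 and 77.1 intensity units on the Nod1 -/- arrays, against 7.09, 11.7 and 8.75 on the Nod1 +/- arrays. Every Nod1 -/- array was above every Nod1 +/- array, and none of the Nod1 +/- arrays was well above background. With the background handling used here, the level of Gpr34 was higher by at least 5.01-fold (measured means -1.88 ± 0.48 and -5.50 ± 0.33, SD, n = 3 each; adjusted p = 0.00147). This bound sets the Nod1 -/- mean against the mean, over the Nod1 +/- arrays, of the lowest signal that counted as well above background. With a normexp background correction, which compresses dim probes, the difference was 1.33, below the log2 bound of 2.33.

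Cx3cr1 encodes the fractalkine receptor of monocytes and resident macrophages (chromosome 9, 119957811 to 119957870, mm9). It read 3.19, 3.09 and 2.45 in Nod1 -/- aortas, against 0.59, 0.87 and 1.13 in Nod1 +/- aortas. The lowest Nod1 -/- array lay above the highest Nod1 +/- array by more than the spread within either genotype. Cx3cr1 was 4.15-fold higher (log2 difference 2.05, standard error 0.24; adjusted p = 0.00446). Another probe of the same gene, at 119959018 to 119959077, differed by 2.29 (adjusted p = 0.00227 over all probes kept). Cx3cr1 and Gpr34 were the 2 members that kept their calls under every alternative in which they were tested. The adjusted p was 0.00115 to 0.0493 for Cx3cr1 and 0.00051 to 0.0178 for Gpr34. Gpr34, however, met the filter through its Nod1 -/- arrays alone, so its p-values are not taken as support.

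P2ry12 encodes an ADP receptor of platelets and microglia (chromosome 3, 59020598 to 59020657, mm9). It read -1.44, -1.95 and -2.21 in Nod1 -/- aortas, against -4.98, -3.89 and -3.93 in Nod1 +/- aortas. The genotypes did not overlap, and 1 of the 3 Nod1 +/- arrays was well above background. P2ry12 was 5.27-fold higher (log2 difference 2.40, standard error 0.35; adjusted p = 0.00874), a call that only the fit blocked by slide row ended (adjusted p = 0.0922, with 0.00363 the lowest over its alternatives). With the normexp correction its difference was 0.95.

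P2ry13, a related ADP receptor gene, is read 8.54 kb from P2ry12 on the same strand (59012054 to 59012113). It read -1.13, -1.29 and -1.69 in Nod1 -/- aortas, against -2.92, -2.25 and -3.33 in Nod1 +/- aortas. The Nod1 -/- arrays lay close together and the Nod1 +/- arrays, all lower, were more spread. P2ry13 was 2.75-fold higher (log2 difference 1.46, standard error 0.30; adjusted p = 0.0232). The call was lost in 7 of 20 alternatives, among them the fits without Nod1 -/- replicate 1 (0.0762) or 2 (0.0873), without Nod1 +/- replicate 1 (0.0695) and with a covariate of Xist signal, a transcript of female cells (0.0588), within a range of 0.00897 to 0.193 over all alternatives. Among the neighbours of this cluster on chromosome 3, the Mediator-related gene Med12l differed by 0.88 (adjusted p = 0.0232) and Gpr171 by -0.44 (adjusted p = 0.179), while P2ry14 was too dim to test.

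Because P2ry12 is also a platelet gene, a list of platelet genes was read beside it. Of 10 tested, 3 were higher and 1 was lower in Nod1 -/- aortas (11% and 7.66% of all genes), with a median difference of 0.84. Gp1ba, a subunit of the von Willebrand factor receptor, was higher by 1.94 (adjusted p = 0.00678), Treml1 by 1.38 and Gp9 by 1.39, while the platelet chemokine gene Ppbp fell by 2.41. The summed signal of the list was 19.1 to 26.2 times the 75th percentile in Nod1 -/- and 22.8 to 25.0 times in Nod1 +/- aortas. Most of it came from the integrin gene Itgb3, at 14.4 to 21.1 in Nod1 -/- and 16.1 to 20.6 in Nod1 +/- aortas. The other platelet genes, Ppbp among them, summed to 4.70 to 5.10 in Nod1 -/- and 4.39 to 6.68 in Nod1 +/- aortas. Pf4, the platelet factor 4 gene, is a member, was not on this list and differed by -0.18 (adjusted p = 0.541). The part of platelet RNA in the P2ry12 result was not tested.

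Ccr2 encodes the monocyte receptor for CCL2. It read -2.58, -3.08 and -3.01 in Nod1 -/- aortas, against -4.00, -3.25 and -3.61 in Nod1 +/- aortas. The genotypes did not overlap, but the gap was small and 1 Nod1 +/- array was not well above background. The difference of 0.73 did not pass the threshold (standard error 0.23; adjusted p = 0.0758). Emr1 differed by 0.38 (95% confidence interval -0.13 to 0.89; adjusted p = 0.245), and its genotypes overlapped.

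**Figure D2:**
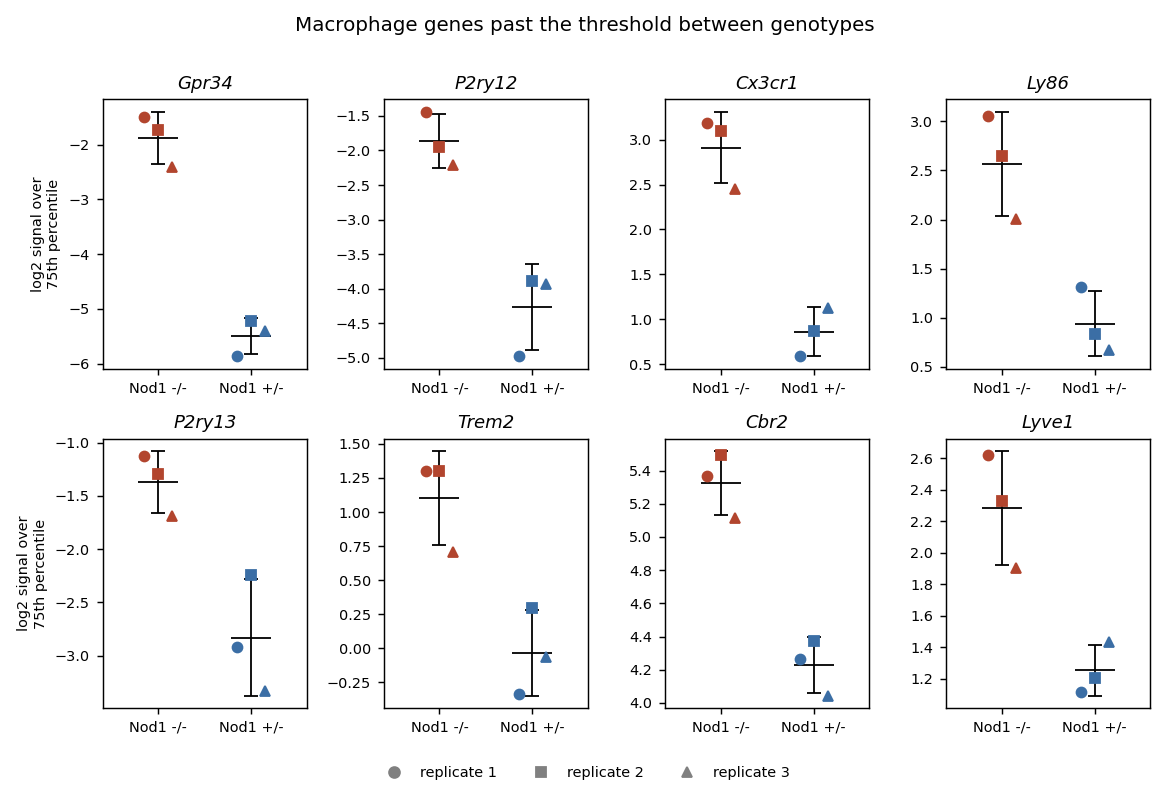
Log2 signal relative to the 75th percentile of the array (vertical axes, each panel with its own range) of the 8 genes past the threshold, for Nod1 -/- at the left and Nod1 +/- at the right of each panel. Marker shapes give the replicate, horizontal lines the mean and bars the SD (n = 3). In every panel the lowest Nod1 -/- array lies above the highest Nod1 +/- array, for Cx3cr1 at 2.45 and 1.13. The Nod1 +/- points of Gpr34 were not well above background.

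In the ITAM pathway, activating receptors signal through small adaptors. Trem2, a lipid-sensing receptor gene that needs the adaptor TYROBP, was higher in Nod1 -/- aortas, while the adaptor genes Tyrobp and Fcer1g and the IgG receptor genes Fcgr1 and Fcgr3 did not pass. Of the 5 members, 1 was higher and 0 were lower (11% and 7.66% of all genes), with a median difference of -0.32.

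Trem2 (chromosome 17, 48491537 to 48491596, mm9) read 1.30, 1.30 and 0.71 in Nod1 -/- aortas, against -0.33, 0.30 and -0.06 in Nod1 +/- aortas. Nod1 -/- replicate 3 was the lowest of its genotype and still above every Nod1 +/- array. Trem2 was 2.20-fold higher (log2 difference 1.14, standard error 0.23; adjusted p = 0.0231). It was the least stable of the 8, losing the call in 9 of 20 alternatives, among them the fits without Nod1 -/- replicate 1 (0.0765) or 2 (0.0876) and without Nod1 +/- replicate 1 (0.0644) or 3 (0.0562) and with the Xist covariate (0.0613), within a range of 0.00967 to 0.177.

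Tyrobp, which encodes the adaptor DAP12, was well above background on all arrays, with means of 4.40 ± 0.56 in Nod1 -/- and 4.28 ± 0.33 in Nod1 +/- aortas (SD, n = 3 each) and overlapping values. Its difference was 0.11 (95% confidence interval -0.65 to 0.88; adjusted p = 0.821), and whether it differed from that of Trem2 was not tested. The probe is shown because it reads through the coding sequence of the signalling motif itself, joining stretches between 31200651 and 31202378 of chromosome 7 (mm9, plus strand), and capitals mark the codons that open the ITAM.
Tyrobp probe: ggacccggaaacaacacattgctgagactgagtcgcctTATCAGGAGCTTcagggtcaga
Fcer1g, the Fc receptor gamma chain, differed by -0.32 (-1.0 to 0.35; adjusted p = 0.444), and Fcgr3, a low-affinity IgG receptor gene read 176 kb away on chromosome 1, by -0.36 (-1.28 to 0.55; adjusted p = 0.524). The high-affinity IgG receptor gene Fcgr1 read -0.09, -0.59 and -1.20 in Nod1 -/- aortas, against 0.05, -0.19 and 0.15 in Nod1 +/- aortas. Its Nod1 -/- arrays were mostly lower but overlapped with Nod1 +/- replicate 2, and the difference of -0.63 did not pass (adjusted p = 0.168).

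Scavenger and lectin receptors had differences of both signs. Lyve1 was the member that passed among the 8 tested, while 11% of all genes were higher and 7.66% lower. The median difference of the 8 was 0.17, and the mannose receptor and sialoadhesin genes had negative differences that did not pass.

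Lyve1 encodes a hyaluronan receptor shared by perivascular macrophages and lymphatic endothelium (chromosome 7, 117994171 to 117994230, mm9). It read 2.62, 2.33 and 1.91 in Nod1 -/- aortas, against 1.12, 1.21 and 1.43 in Nod1 +/- aortas. The nearest arrays were Nod1 -/- replicate 3 and Nod1 +/- replicate 3, which still did not meet. Lyve1 was 2.04-fold higher (log2 difference 1.03, standard error 0.20; adjusted p = 0.0203). The call was lost in 8 of 20 alternatives, among them the fits without Nod1 -/- replicate 1 (adjusted p = 0.0515) or 2 (0.0795) and those without Nod1 +/- replicate 1 (0.0648) or 2 (0.063), within a range of 0.00594 to 0.138. Of 4 lymphatic endothelial genes tested, 0 were higher and 1 was lower in Nod1 -/- aortas (11% and 7.66% of all genes). The lower one was the glycoprotein gene Pdpn (-1.54, adjusted p = 0.00105), and the lymphatic regulator Prox1 differed by 0.07 (adjusted p = 0.735). The summed signal of these 4 was 11.7 to 14.9 in Nod1 -/- and 29.2 to 30.8 in Nod1 +/- aortas, most of it from Pdpn, and without Pdpn it was 2.93 to 4.70 in Nod1 -/- and 2.80 to 4.06 in Nod1 +/- aortas. Flt4 was not tested for want of a usable spot on every array, and Reln was not well above background on any array.

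Timd4, a receptor for phosphatidylserine on dying cells, read -2.41, -2.91 and -3.86 in Nod1 -/- aortas, against -5.42, -3.86 and -5.51 in Nod1 +/- aortas. The values met between Nod1 -/- replicate 3 and Nod1 +/- replicate 2, and the gene was well above background on 2 Nod1 -/- arrays and 1 Nod1 +/- array. Its difference of 1.87 was the widest that did not pass (standard error 0.56; adjusted p = 0.0656). Folr2, the folate receptor beta gene, read 3.02, 2.43 and 1.70 in Nod1 -/- aortas, against 2.01, 2.0 and 1.49 in Nod1 +/- aortas. Nod1 -/- replicates 1 and 2 lay above all Nod1 +/- arrays and replicate 3 did not, and the difference was 0.55 (adjusted p = 0.306).

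Siglec1, the sialoadhesin gene, read -1.22, -1.58 and -2.39 in Nod1 -/- aortas, against -0.76, -1.07 and -0.86 in Nod1 +/- aortas. All Nod1 -/- arrays were lower, replicate 3 the most, and the difference of -0.83 did not pass (standard error 0.30; adjusted p = 0.105). Mrc1, which encodes the mannose receptor CD206, read 3.91, 3.65 and 3.10 in Nod1 -/- aortas, against 4.23, 4.22 and 3.96 in Nod1 +/- aortas. The genotypes did not overlap but lay close, with a difference of -0.58 (adjusted p = 0.117). Cd163, the receptor for haemoglobin bound to haptoglobin, was dim, at -2.88, -3.23 and -3.56 in Nod1 -/- aortas, against -2.75, -2.68 and -2.98 in Nod1 +/- aortas. Its genotypes overlapped and the difference of -0.42 did not pass (adjusted p = 0.173). The lectin genes Clec10a and Cd209f differed by 0.14 and 0.19 (adjusted p = 0.796 and 0.795), with overlap in both.

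The MS4A genes encode membrane proteins, and their probes lie 59.3 kb (Ms4a6c to Ms4a6b) and 150 kb (Ms4a7 to Ms4a6c) apart on chromosome 19. Of the 3 members, 0 passed the threshold of limma's test, beside 18.7% of all genes. At limma's unadjusted p under 0.05 there were 0, against 22% higher and 13.6% lower among all genes. The median difference of the 3 was 0.47. Ms4a6b read -2.33, -3.00 and -1.84 in Nod1 -/- aortas, against -2.75, -3.23 and -3.49 in Nod1 +/- aortas. It was the member in which Nod1 -/- replicate 3 was the highest array, and its difference of 0.76 did not pass (adjusted p = 0.158). Ms4a7, a marker of macrophages outside the brain parenchyma, read 2.66, 2.28 and 1.51 in Nod1 -/- aortas, against 1.82, 1.67 and 1.56 in Nod1 +/- aortas. Nod1 -/- replicate 3 lay below every Nod1 +/- array while the other two lay above, and the difference was 0.47 (adjusted p = 0.294). Ms4a6c differed by -0.02 (-0.81 to 0.77; adjusted p = 0.968).

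Lysosomal and killing proteins likewise had 0 of 6 members past the threshold, beside 18.7% of all genes, and a median difference of 0.08. Again 0 had an unadjusted p under 0.05 in limma's test, against 22% of all genes higher and 13.6% lower. Mpeg1, which encodes the pore-forming perforin-2, read 1.05, 0.83 and 0.39 in Nod1 -/- aortas, against 0.47, 0.53 and 0.04 in Nod1 +/- aortas. Nod1 -/- replicate 3 lay among the Nod1 +/- arrays, and the difference was 0.41 (adjusted p = 0.226). Laptm5, a lysosomal membrane protein gene of blood cells, read 0.53, 0.10 and -0.06 in Nod1 -/- aortas, against 0.40, 0.57 and 0.79 in Nod1 +/- aortas. Its Nod1 -/- values were lower with overlap, and the difference was -0.39 (adjusted p = 0.19). The protease gene Ctss and the glycoprotein gene Cd68 differed by 0.38 and -0.13 (adjusted p = 0.335 and 0.664). The lysozyme genes Lyz1 and Lyz2, near-identical copies read 5.69 kb apart, differed by 0.06 and 0.10 (adjusted p = 0.883 and 0.908), and signal may be shared between their probes.

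**Figure D3:**
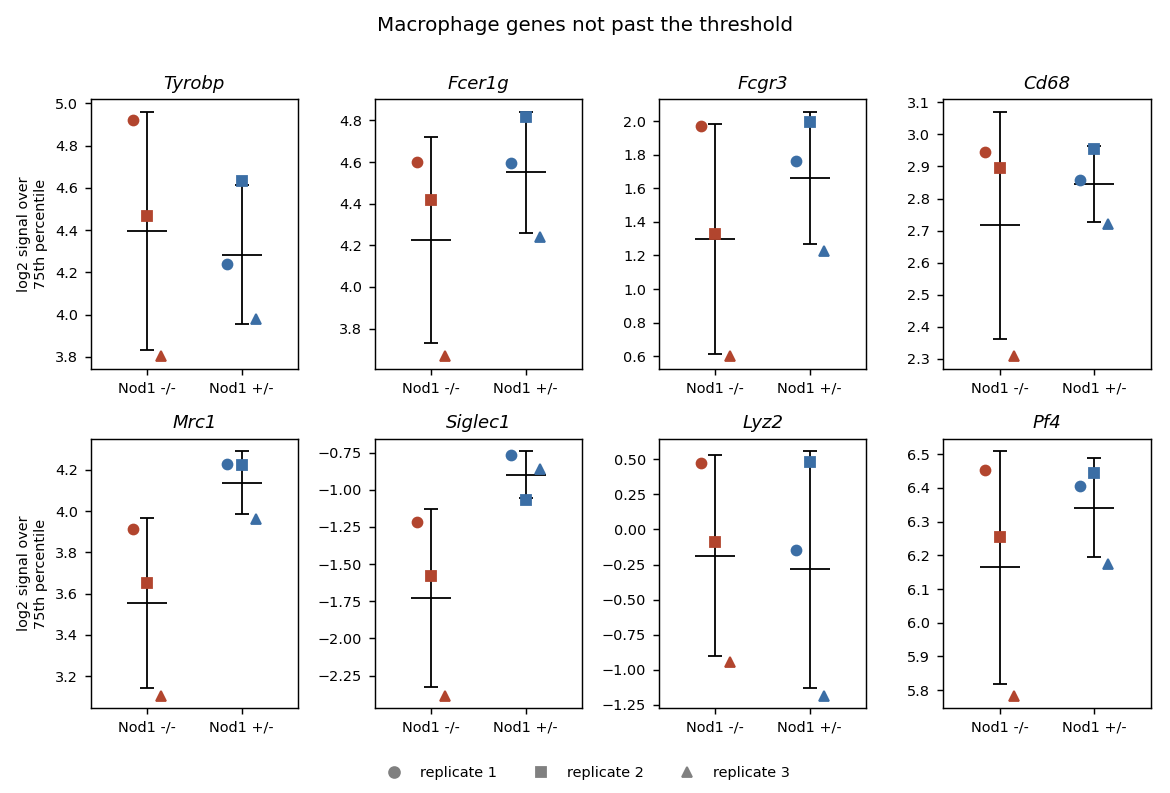
Log2 signal relative to the 75th percentile of the array (vertical axes, each panel with its own range) of 8 members that did not pass, for Nod1 -/- at the left and Nod1 +/- at the right, with marker shapes for replicates, lines for means and bars for SD (n = 3). Nod1 -/- replicate 3 (red triangle) is the lowest Nod1 -/- array in all 8 panels, and the genotypes are apart only for Mrc1 and Siglec1, both lower in Nod1 -/-.

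Secreted, nuclear and other proteins had 2 of 6 members higher, Ly86 and Cbr2, beside 11% of all genes. The median difference of the 6 was 0.44. Ly86 encodes MD-1, the secreted partner of the toll-like receptor homologue CD180 (chromosome 13, 37510701 to 37510760, mm9). It read 3.05, 2.65 and 2.0 in Nod1 -/- aortas, against 1.31, 0.84 and 0.67 in Nod1 +/- aortas. The genotypes were apart although both were spread. Ly86 was 3.10-fold higher (log2 difference 1.63, standard error 0.30; adjusted p = 0.0174), and the call was lost in 5 of 20 alternatives, among them the fits without Nod1 -/- replicate 2 (0.0719) or Nod1 +/- replicate 2 (0.0559), within a range of 0.00732 to 0.123 over all alternatives.

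Cbr2, a carbonyl reductase gene abundant in lung, had the smallest standard error of the 8 (chromosome 11, 120590825 to 120590884, mm9). It read 5.37, 5.49 and 5.11 in Nod1 -/- aortas, against 4.26, 4.37 and 4.04 in Nod1 +/- aortas. Spread within a genotype was smaller than the gap between genotypes. Cbr2 was 2.14-fold higher (log2 difference 1.1, standard error 0.14; adjusted p = 0.00648). Its call was lost in the fit blocked by slide row (0.0619) and without both first replicates (0.0834), and held in the other alternatives, down to 0.0014. Another Cbr2 probe, at 120592059 to 120592118, gave a difference of 1.36 (adjusted p = 0.0342 over all probes kept). It lies in the coding sequence and is shown, with no letters marked, as the other reading of this transcript.
Cbr2 probe: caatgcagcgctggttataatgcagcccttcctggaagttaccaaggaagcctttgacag
Of 7 epithelial and mesothelial genes, 2 were higher in Nod1 -/- aortas, Lrrn4 (1.99) and Krt18 (0.78), beside 11% of all genes. The summed signal of the 7 was 20.7 to 27.0 in Nod1 -/- and 14.3 to 32.8 in Nod1 +/- aortas. The part of such cells in the Cbr2 result was not tested.

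F13a1, the coagulation factor XIII A chain gene, read 5.69, 5.34 and 4.84 in Nod1 -/- aortas, against 4.71, 4.90 and 4.67 in Nod1 +/- aortas. Nod1 -/- replicates 1 and 2 stood above all Nod1 +/- arrays and replicate 3 did not. The difference of 0.53 did not pass (adjusted p = 0.148), and another probe of F13a1 gave 0.00. Aif1, which encodes IBA1, differed by 0.35 (adjusted p = 0.248), the chemokine gene Pf4 by -0.18 (adjusted p = 0.541) and the transcription factor gene Maf by -0.19 (adjusted p = 0.247). Pf4 averaged 6.16 ± 0.34 in Nod1 -/- and 6.34 ± 0.15 in Nod1 +/- aortas (SD, n = 3 each).

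Members varied together within the Nod1 -/- genotype. Nod1 -/- replicate 1 was the highest Nod1 -/- array for 30 of 34 members (28.5% of all genes tested) and replicate 3 the lowest for 31 (41.3% of all genes). The mean over the 34 members was 1.55, 1.21 and 0.69 on the Nod1 -/- arrays, against 0.63, 0.79 and 0.49 on the Nod1 +/- arrays. The median SD of a member was 0.44 within Nod1 -/- and 0.26 within Nod1 +/-, where all genes tested had 0.15 and 0.18. Some lists of other cell types were also low on Nod1 -/- replicate 3, and some were highest there within the genotype. Smooth muscle genes summed to 1071, 1109 and 1134 on the Nod1 -/- arrays, and neutrophil genes to 181, 169 and 223. The summed signal of mast cell genes was 80.9, 76.7 and 44.1 on the Nod1 -/- arrays, against 65.3, 71.5 and 70.5 on the Nod1 +/- arrays. That of adipocyte genes was 117, 108 and 56.9 on the Nod1 -/- arrays, against 114, 91.0 and 82.8 on the Nod1 +/- arrays. In slide row 2, which held Nod1 -/- replicate 3 and all Nod1 +/- arrays, replicate 3 lay above every Nod1 +/- array for 10 members, the 8 that passed with Ms4a6b and Ccr2, and below every one for 15 (40.8% and 26.3% of all genes). In the fit blocked by slide row, Cx3cr1 (1.59, adjusted p = 0.0315) and Gpr34 remained higher and Siglec1 was lower (-1.49, adjusted p = 0.0288, with up to 0.222 over its alternatives). Without Nod1 -/- replicate 3, 12 members were higher (8.77% of all genes in that fit). Without replicate 1 of that genotype 5 were higher (4.26% of all genes), and without replicate 2 there were 4 (3.35%).

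**Figure D4:**
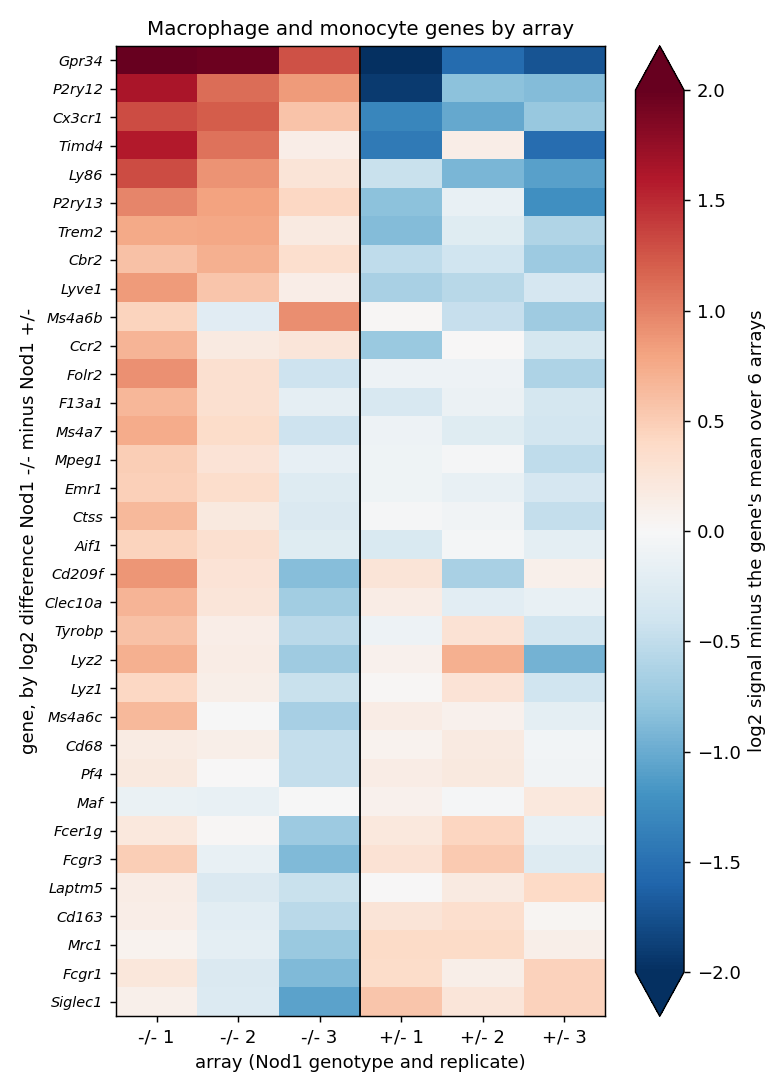
Heat map of the 34 tested members (rows, ordered by the log2 difference Nod1 -/- minus Nod1 +/-) on the 6 arrays (columns, Nod1 -/- left of the line), coloured by log2 signal minus the mean of the gene over all arrays, with the scale limited at 2 in either direction. Red fills the Nod1 -/- columns in the top rows, and the third Nod1 -/- column turns blue from Folr2 downward except for Maf, where its deviation is near 0, while replicate 1 stays red in most rows.

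Other genes of macrophage biology were read from lists of ligands, growth factors, transcription factors and markers. Ligands for the receptors CX3CR1 and CCR2 were lower in Nod1 -/- aortas for 4 of 5 genes tested, against 7.66% of all genes. Their median difference was -4.33. Cx3cl1, the fractalkine gene, averaged -0.61 ± 0.12 in Nod1 -/- and 3.72 ± 0.27 in Nod1 +/- aortas (SD, n = 3 each), a difference of -4.33 (adjusted p = 0.000243). Ccl2 differed by -5.61 (adjusted p = 0.000435) and Ccl7 by -4.44 (adjusted p = 0.00072), and Ccl8, whose mouse product is better known as a CCR8 ligand, did not pass (-1.47, adjusted p = 0.165). The growth factor gene Csf1 averaged 2.43 ± 0.12 in Nod1 -/- and 4.53 ± 0.23 in Nod1 +/- aortas (SD, n = 3 each), a difference of -2.10 (adjusted p = 0.00111). Its receptor gene Csf1r averaged 5.32 ± 0.42 in Nod1 -/- and 4.36 ± 0.03 in Nod1 +/- aortas (SD, n = 3 each), a difference of 0.96 (adjusted p = 0.0295). The call of Csf1r was lost in 11 of 20 alternatives, with an adjusted p between 0.00983 and 0.172 over them, and was lost without any 1 of the arrays except Nod1 -/- replicate 3. The other CSF1R ligand gene, Il34, differed by -0.34 (adjusted p = 0.213).

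**Figure D5:**
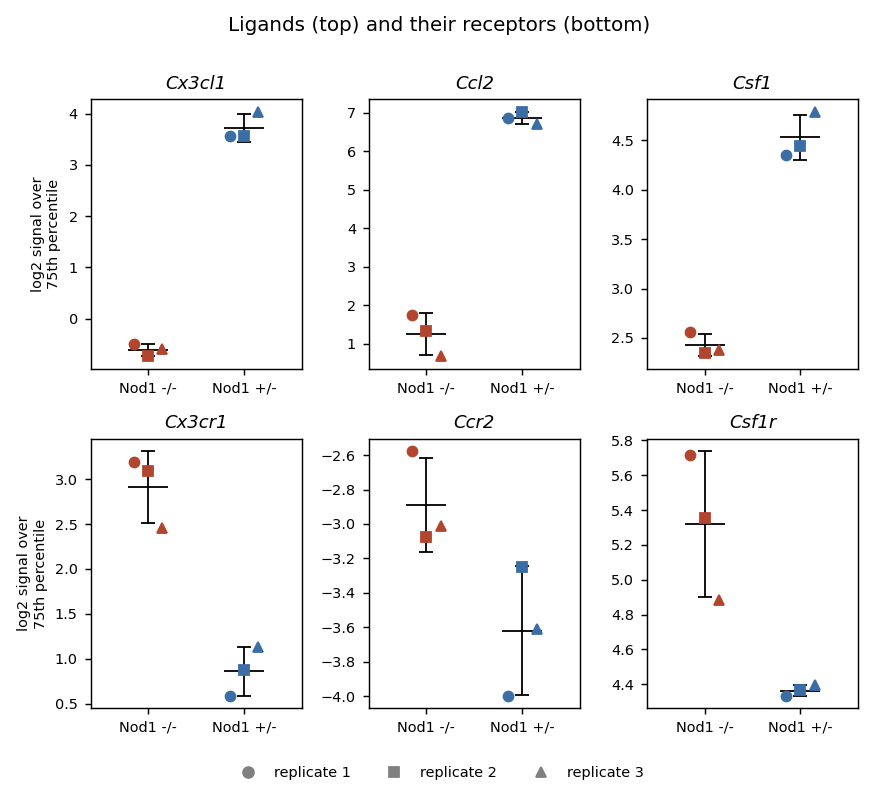
Log2 signal relative to the 75th percentile of the array (vertical axes, each panel with its own range) of the ligand genes Cx3cl1, Ccl2 and Csf1 (top) and of the receptor genes Cx3cr1, Ccr2 and Csf1r (bottom), for Nod1 -/- at the left and Nod1 +/- at the right, with marker shapes for replicates, lines for means and bars for SD (n = 3). All ligand panels are lower in Nod1 -/- and all receptor panels higher, the Ccr2 difference of 0.73 without passing the threshold.

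For the counts of this paragraph, 11% of all genes tested were higher and 7.66% lower. Of 11 macrophage transcription factor genes, 0 were higher and 6 were lower in Nod1 -/- aortas, with a median of -0.61. Among them were Bach1 (-0.82, adjusted p = 0.00481), Cebpb (-1.24, adjusted p = 0.00596) and Ets2 (-0.61, adjusted p = 0.00852). Of 32 further macrophage genes, 2 were higher and 5 lower, with a median of 0.01. The scavenger receptor gene Msr1 (-2.02, adjusted p = 0.00268) and the lipopolysaccharide co-receptor gene Cd14 (-1.81, adjusted p = 0.00512) were lower, and the iron exporter gene Slc40a1 was higher (1.54, adjusted p = 0.0162). Of 7 microglial genes besides the members, 1 was higher and 2 were lower, with a median of 0.12. The lower ones were the fatty acid receptor gene Gpr84 (-5.55, adjusted p = 0.000577) and Tmem119 (-0.69, adjusted p = 0.0261). Of 9 classical activation genes, 1 was higher and 7 were lower, with a median of -2.45, and of 8 alternative activation genes 0 were higher and 3 lower.

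Neutrophil and monocyte genes were lower in part. Of 16 neutrophil genes, 0 were higher and 11 lower in Nod1 -/- aortas, with a summed signal of 169 to 223 times the 75th percentile in Nod1 -/- and 339 to 398 times in Nod1 +/- aortas. Csf3r, singled out after its values were seen, gave most of the Nod1 -/- sum and did not pass (0.44, adjusted p = 0.218), and the other 15 genes summed to 25.5 to 33.1 in Nod1 -/- and 188 to 309 in Nod1 +/- aortas. Monocyte genes had 0 higher and 5 lower of 12, and their summed signal was 72.3 to 73.0 in Nod1 -/- and 132 to 178 in Nod1 +/- aortas. Ms4a4c, which did not pass (-0.27, adjusted p = 0.143), gave 33.6 to 38.8 of the Nod1 -/- sum. Without Ms4a4c the sum was 33.5 to 38.9 in Nod1 -/- and 91.2 to 135 in Nod1 +/- aortas. Much of the latter came from the haptoglobin gene Hp, with log2 means of 2.51 in Nod1 -/- and 5.81 in Nod1 +/- aortas (difference -3.30, adjusted p = 0.00668). The sum therefore does not measure monocyte content. Dendritic cell genes had 0 higher and 3 lower of 11, mast cell genes 0 and 2 of 8, and lymphocyte genes 1 and 0 of 10, against 11% higher and 7.66% lower among all genes. Their part in the differences of the members was not tested.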

How the data were processed

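RNA of fetal aortas was read on 6 1-colour Cy3 Agilent arrays, grouped by the genotype in the labels, 3 arrays each. Whether each array held 1 fetus is not given in the sources used here, so p-values rest on the spread of these samples, which may be technical, and 3 arrays a genotype limit the precision. The deposited scanner files hold an intensity for each spot with its background subtracted (per the file headers, Agilent Feature Extraction 10.7.1.1), while version 9.5.1.1 is given in the submitters' processing notes. The deposited value table, also of intensity and with a median of 33.4 in every column, served only as an alternative, and 0 of its columns lacked a sample.

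Processed signals were taken to log2 here from the deposited values, control and outlier spots were left out, spots of a probe were averaged, and each array was scaled by subtracting its 75th percentile over non-control probes. A probe was kept when it had a usable spot on every array (134 had not) and lay well above background on 3 or more of 6 (30166 probes, 41 of them of members), and the brightest kept probe stood for its gene. The genotype difference was fitted by lmFit and eBayes of limma 3.58.1 under R 4.3.3, with Benjamini-Hochberg adjustment over all genes and a threshold of 0.05. Gene names are those of the array design, and probe positions refer to mm9 per the file headers. No mm9 exons were used here, and the place of a probe in its gene is not given except that the 2 probes whose sequence is shown read coding sequence. A list's summed signal is the sum of its members' linear signals divided by the 75th percentile. The test was tested on simulated data.

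Members and lists were chosen with earlier results of these data known. Every member is named, with values per array for those that passed and the 12 others with the widest differences, and from other lists at most 3 of the smallest p. Further genes are named where a receptor, ligand or defining marker is concerned or where a gene weighs in the sum of its list. All platelet genes that passed are also named. A neighbour of the P2ry cluster and a gene of the microglial list are not reported here. Alternatives covered background correction, scaling, filters, probe averaging, priors, array weights, blocks for slide row or replicate number, a covariate of Xist signal, the deposited table, a 2-fold minimum, and leaving out each array or both first replicates. A fit with the mean of other macrophage genes as a covariate was chosen after seeing the data.

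Replicate numbers are shared between genotypes, and the deviations of same-numbered arrays correlated by 0.08, 0.28 and 0.11 for numbers 1, 2 and 3, so the numbers were not taken to pair the samples.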

Additional observations from a re-analysis of the deposited data

How the results depend on the processing

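The 8 members that passed kept a positive difference in all alternatives, and no call changed direction. Among all genes, 1203 passed with a 2-fold minimum, 2281 with a covariate of Xist signal, 2506 with median scaling, 1636 when dim probes were not filtered, 1033 in a fit blocked by slide row and 641 when both first replicates were left out, against 4012 in the fit reported, and 6016 with array weights. Leaving out 1 array gave 1459 to 3387 genes, 4 to 12 members and a median member difference of 0.18 to 0.58. Of the members, 4 passed when dim probes were not filtered, 3 in the fit blocked by slide row (1 of them lower, median -0.12) and 3 without either first replicate, when Cx3cr1, Gpr34 and P2ry12 did. With the mean of other macrophage genes as a covariate, chosen after seeing the data, 14 passed, all higher, beside 13.4% of all genes higher and 4640 called, and that list holds Cd14 and Msr1, which were themselves lower in Nod1 -/- aortas. With the replicate block 4040 genes and 7 members passed, Lyve1 not among them (adjusted p = 0.0568). The causes were not tested. The calls of P2ry12 and Gpr34 could not be computed where all 6 arrays had to be well above background. Dim members (Gpr34, P2ry12, Timd4, Ccr2, Cd163) are limited by signal over background. With normexp the difference of Gpr34 was 1.33 and that of P2ry13 0.88.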
